A study of Mus musculus with 4 samples.

Results

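The genes described here are 10 regulators of mitochondrial and oxidative gene expression in muscle: Ppargc1a, Ppargc1b, Esrra, Esrrg, Ppara, Ppard, Nrf1, Tfam, Gabpa and Nrip1. They were chosen by symbol, and the values of a symbol's rows were to be summed. Each had 1 row in every table, so 10 of the 20340 gene labels with a value in all samples are described. mRNA-seq was performed on TA (tibialis anterior) muscle, which runs along the shin, from wild-type C57BL/6 mice, with 2 samples from mice of 20 months (Old 1 and Old 2) and 2 from mice of 3 months (Young 1 and Young 2). The study describes the mice as healthy at both ages, but reports smaller muscle fibers at 20 months and describes the sequenced old muscles as atrophic. It drew the sex of the mice at random, and the labels name no treatment. Neither the labels nor the methods tie a sample to a single mouse.

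PGC-1alpha (Ppargc1a) and PGC-1beta (Ppargc1b) are coactivators that do not bind DNA themselves. They are recruited by nuclear receptors, among them the estrogen-related receptors (Esrra, Esrrg) and the fatty acid-sensing receptors PPARalpha and PPARdelta (Ppara, Ppard), and by NRF1. NRF1 and the GABP complex, whose DNA-binding subunit is encoded by Gabpa, act on nuclear genes for respiratory chain subunits and on Tfam, whose product packages and transcribes mitochondrial DNA. RIP140 (Nrip1) is a corepressor that binds the same nuclear receptors. In skeletal muscle, PGC-1alpha is known for driving mitochondrial biogenesis and traits of oxidative fibers.

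In old muscles, Ppargc1a, Esrra, Ppara, Ppard and Nrip1 were lower. Their levels in the Old samples were between 34.4% (Ppard) and 50.6% (Nrip1) below those in the Young samples. Ppargc1b had a higher level in both Old samples but did not pass the test (limma), and Esrrg, Nrf1 and Tfam did not pass it either. Gabpa was listed at 0 in 1 sample of each age and could not be compared.

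The RefSeq promoter windows (GRCm38.p6, 300 bases around a gene start, written 5′ to 3′ on the gene's strand) are shown for 3 members that were lower together and for Tfam, which did not pass the test. Capitals mark GCATGC, the core of the NRF1 site, which is its own reverse complement, and CCGGAA, the core of sites of ETS factors such as GABP, searched on both strands.
Ppargc1a (chr5:51567676-51567975, minus strand): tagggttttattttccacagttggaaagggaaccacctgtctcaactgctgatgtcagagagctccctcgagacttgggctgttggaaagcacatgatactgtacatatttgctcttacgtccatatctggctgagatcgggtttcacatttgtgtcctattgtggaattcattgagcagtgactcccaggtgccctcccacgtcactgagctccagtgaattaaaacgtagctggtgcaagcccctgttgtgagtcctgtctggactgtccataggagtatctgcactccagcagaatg
Esrra (chr19:6921759-6922058, minus strand): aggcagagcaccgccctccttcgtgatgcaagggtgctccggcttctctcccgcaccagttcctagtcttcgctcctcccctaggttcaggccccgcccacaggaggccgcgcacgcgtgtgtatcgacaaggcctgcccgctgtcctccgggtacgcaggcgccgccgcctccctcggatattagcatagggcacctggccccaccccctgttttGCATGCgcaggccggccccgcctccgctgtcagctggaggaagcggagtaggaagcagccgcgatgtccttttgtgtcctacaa
Ppara (chr15:85735526-85735825, plus strand): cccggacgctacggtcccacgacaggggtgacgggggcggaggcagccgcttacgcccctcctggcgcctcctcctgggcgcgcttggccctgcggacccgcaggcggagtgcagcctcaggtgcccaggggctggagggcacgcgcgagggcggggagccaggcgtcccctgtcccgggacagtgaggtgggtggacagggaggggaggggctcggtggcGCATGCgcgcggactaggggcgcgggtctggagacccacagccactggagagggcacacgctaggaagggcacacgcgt
Tfam (chr10:71237995-71238294, minus strand): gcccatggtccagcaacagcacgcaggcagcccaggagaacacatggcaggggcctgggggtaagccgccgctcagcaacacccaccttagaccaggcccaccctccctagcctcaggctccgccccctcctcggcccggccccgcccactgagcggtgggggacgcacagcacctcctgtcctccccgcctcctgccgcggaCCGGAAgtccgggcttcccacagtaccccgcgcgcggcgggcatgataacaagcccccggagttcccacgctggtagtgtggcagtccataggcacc

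A window was found for 9 of the 10 members. GCATGC was in a window of 4 of them (Esrra, Esrrg, Ppara and Gabpa) and in 7.93% of all 32817 windows. CCGGAA was in a window of 2 members (Tfam and Gabpa) and in 14.9% of all windows. The nuclear receptor element AAGGTCA, searched in the same way, was in the windows of 0 of 9 members and in 4.72% of all windows. Esrrg, Nrf1 and Nrip1 have more than 1 window, and a member was counted where any of its windows held the letters. The Ppargc1a window held none of these letters.

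The values are FPKM (fragments scaled to transcript length and to the mapped fragments of the sample), from which the depth of a sample cannot be read. The samples of an age differed by a factor. Among the genes at 10 to 30 FPKM in Old 1 and above 0 in Old 2, the log2 ratio of Old 1 to Old 2 had a median of 1.00 and ran from 0.93 at the 5th to 1.99 at the 95th percentile. That of Young 2 to Young 1 had a median of 0.99 and ran from 0.85 to 1.94. At 3 to 10 FPKM the medians of these ratios were 1.18 for Old and 1.16 for Young. There both 95th percentiles were 2.71. For the 9 members without a value of 0, Old 1 was 1.91 to 2.35 times Old 2, and Young 2 was 1.86 to 2.20 times Young 1. The samples were therefore scaled to each other by the median of ratios over 7228 genes, and log2(scaled FPKM + 1) was compared with limma. p-values measure only the spread between these samples, which may be technical. The study speaks of 2 independent sequencing experiments for each sample. The design text of the series speaks of more samples per age than the 2 analysed here. If the samples of an age are 1 library, each age has n = 1 and no replicate check. For this reason no mean ± SD is given. The skeletal muscle list of 9 markers with a value summed to 55690, 18160, 20320 and 45990 scaled FPKM in Old 1, Old 2, Young 1 and Young 2, and so differed within each age. Of these markers, Mylpf, Tnnc2, Pygm, Eno3, Actn3 and Casq1 had at least 1104 scaled FPKM in every sample, while Ckm was listed at 0 in all 4 samples and Ttn in both Old samples.

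Of 10266 genes tested, 7.94% were lower and 5.61% were higher in old muscles (limma, Benjamini-Hochberg adjusted p under 0.05). Among the 10 members, all of which were tested, 5 (50.0%) were lower and 0 were higher. At an unadjusted p under 0.05 (limma), 6 members were lower and 1 was higher. At that threshold 1812 of the 10266 tested genes were lower and 1666 were higher. The median log2 fold change was -0.37 over the members and -0.01 over all tested genes. After scaling, both Old samples lay below both Young samples for 7 members and above them for 2. These patterns were met by 28.4% and 27.8% of all tested genes. The calls depended on the scaling, on the trend and filter settings of the test, and on the samples kept. Without the trend 0 members passed in limma, where 181 of the 10266 tested genes were lower and 103 higher. Without a filter 0 of all genes passed. With the values as deposited, 0 members passed in limma (0 also at an unadjusted p under 0.05), and 0.127% and 0.175% of all genes were lower and higher. Without Old 1, Old 2 or Young 1, 0 members passed (5 lower and 0 higher at an unadjusted p under 0.05 in each), where 1.17% and 0.584%, 0.0195% and 0.0195%, and 0.0682% and 0% of all genes were lower and higher. Without Young 2, 3 members were lower (Nrip1, Ppara and Ppargc1a), against 2.67% and 1.91% of all genes lower and higher. Quantile normalization left 1 lower member (Esrra, with 1.83% and 1.16% of all genes lower and higher), and cyclic loess 5 (13.6% and 11.1%). With same-numbered samples as a replicate block, 0 members passed, and 0.205% and 0.234% of all genes were lower and higher. At an unadjusted p under 0.05 (limma), 5 members were lower and 0 higher under this block. Of all 10266 tested genes, 815 were lower and 720 higher at that threshold.

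**Figure D1:**
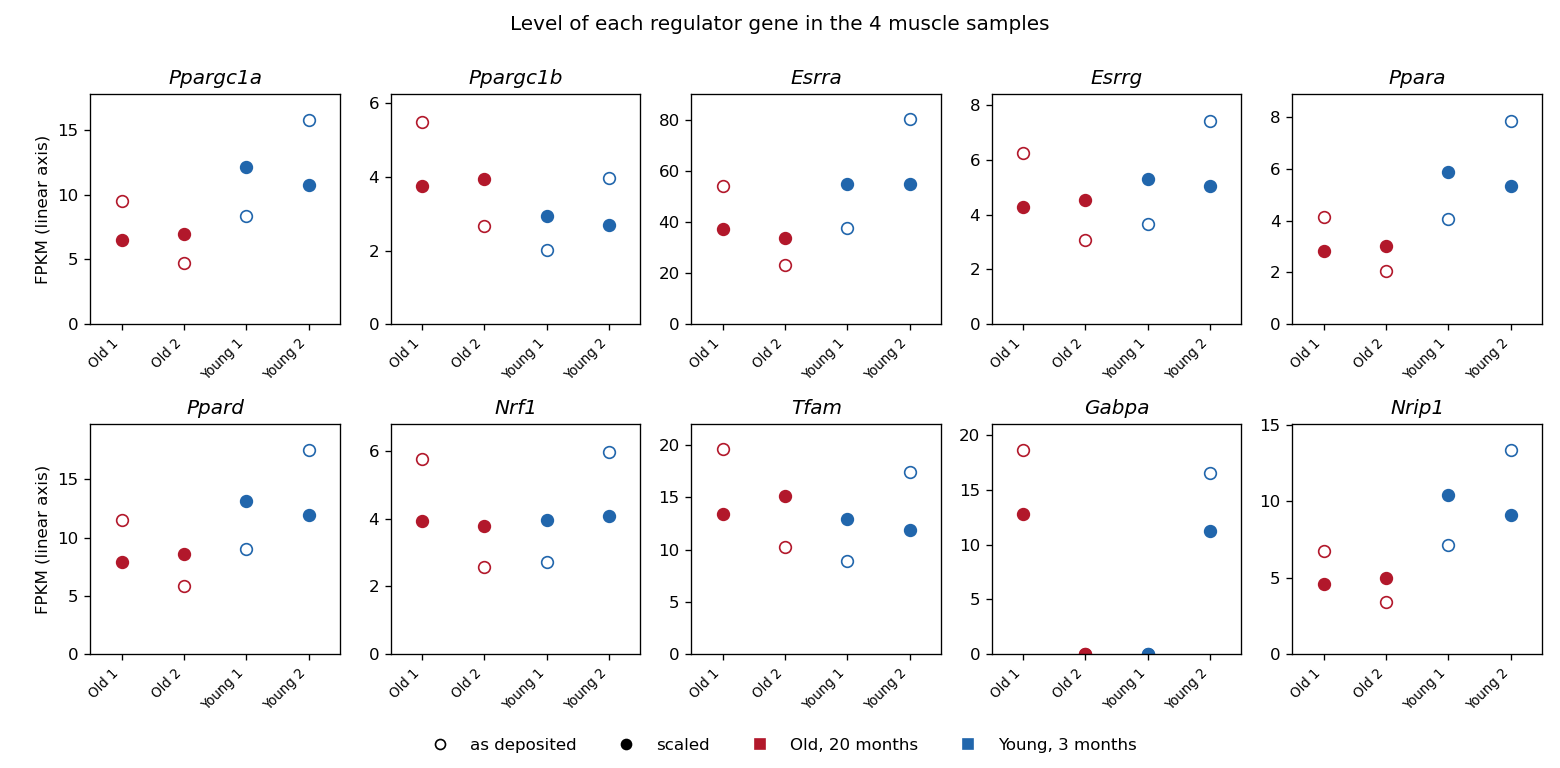
FPKM (linear axis) of each of the 10 regulators in Old 1, Old 2, Young 1 and Young 2, as deposited (open circles) and after scaling (filled circles), in red for Old and blue for Young. After scaling, the Old samples sit below the Young samples for Ppargc1a, Esrra, Ppara, Ppard and Nrip1, and Gabpa is at 0 in Old 2 and Young 1.

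Ppargc1a lies on chromosome 5 from 51454249 to 51567703 (mm10 locus, minus strand). It had 9.47 FPKM in Old 1, 4.73 FPKM in Old 2, 8.34 FPKM in Young 1 and 15.8 FPKM in Young 2. Scaled levels were 6.48 and 6.97 FPKM in Old 1 and Old 2, against 12.1 and 10.7 FPKM in Young 1 and Young 2. As deposited the ages overlapped, and after scaling both Old samples were below both Young samples. The 4 ratios of an Old to a Young sample ran from 0.535 to 0.648. On the log2 scale Old minus Young was -0.69 ± 0.08 (standard error, limma adjusted p = 0.0339), and 4.92% of the tested genes had a lower one.

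Ppargc1b, on chromosome 18 from 61291453 to 61401414 (mm10 locus, minus strand), had 5.50 FPKM in Old 1, 2.68 FPKM in Old 2, 2.02 FPKM in Young 1 and 3.98 FPKM in Young 2. After scaling, the levels were 3.76 and 3.94 FPKM in Old 1 and Old 2 and 2.93 and 2.70 FPKM in Young 1 and Young 2. Each Old sample exceeded each Young sample, by ratios of 1.28 to 1.46. The log2 fold change of 0.35 missed the threshold (95% interval 0.15 to 0.55, standard error 0.07, limma adjusted p = 0.0613). With genes at 1 FPKM or more in all 4 samples only, Ppargc1b passed it. The locus holds the gene of the microRNA Mir378a within its bounds, and the reads of the 2 genes were not separated here.

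The coactivators were also compared within each sample, where a common factor of a sample cancels. This and the other ratios below were chosen after the values were seen. The ratio of Ppargc1a to Ppargc1b in deposited FPKM was 1.72 in Old 1 and 1.77 in Old 2, against 4.13 in Young 1 and 3.97 in Young 2. The ages did not overlap, and the log2 difference between them was -1.22. With 2 samples per age, an exact permutation test cannot give a two-sided p below 0.333, which is the p of this ratio and of each ratio that follows. Ppargc1a was the more abundant coactivator per length in all 4 samples.

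**Figure D2:**
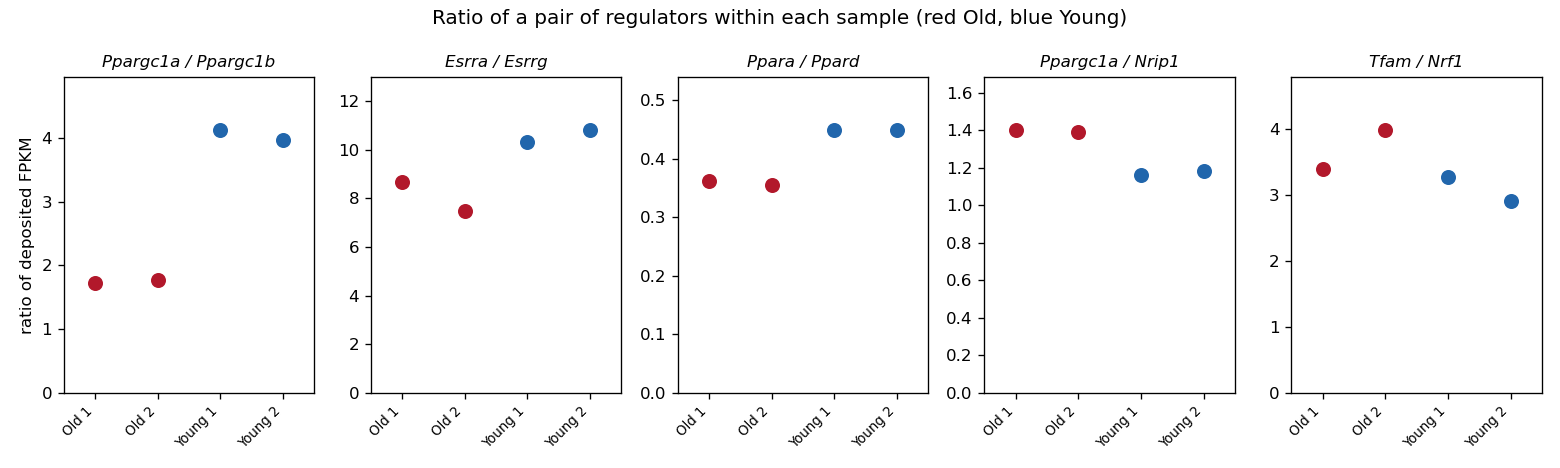
Ratio of deposited FPKM between a pair of regulators within each of the 4 samples (linear axes from 0), with Old in red and Young in blue. The ratio of Ppargc1a to Ppargc1b is 1.72 and 1.77 in the Old samples and 4.13 and 3.97 in the Young samples, and in each of the 5 panels the ages do not overlap. The pairs were chosen after the values were seen, and the share of all gene pairs without overlap was not computed.

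Esrra, which encodes ERRalpha, was the most abundant member in every sample. It lies on chromosome 19 from 6909698 to 6921808 (mm10 locus, minus strand), and had 54.2 FPKM in Old 1, 23.1 FPKM in Old 2, 37.8 FPKM in Young 1 and 80.5 FPKM in Young 2. Scaled levels were 37.1 and 33.9 FPKM in the Old samples and 54.9 and 54.8 FPKM in the Young samples. The higher Old sample was 0.677 times the lower Young sample. Old minus Young on the log2 scale was -0.61 ± 0.07 (standard error, limma adjusted p = 0.0315). The locus overlaps Trmt112, and how reads of overlapping genes were divided is not given in the sources used here.

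Esrrg encodes ERRgamma, a receptor abundant in oxidative muscle, and lies on chromosome 1 from 187609006 to 188214884 (mm10 locus, plus strand). It had 6.26 FPKM in Old 1, 3.09 FPKM in Old 2, 3.67 FPKM in Young 1 and 7.43 FPKM in Young 2. After scaling, the Old samples had 4.28 and 4.54 FPKM, a little below the Young samples at 5.33 and 5.06 FPKM. Between the ages, log2 levels differed by -0.19 (95% interval -0.37 to -0.02, standard error 0.06, limma adjusted p = 0.123). The ratio of Esrra to Esrrg was 8.66 and 7.47 in Old 1 and Old 2, against 10.3 and 10.8 in Young 1 and Young 2, so the ages did not overlap.

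Ppara, on chromosome 15 from 85735515 to 85806851 (mm10 locus, plus strand), had 4.16 FPKM in Old 1, 2.06 FPKM in Old 2, 4.06 FPKM in Young 1 and 7.87 FPKM in Young 2. Scaled levels were 2.84 and 3.03 FPKM in the Old samples and 5.90 and 5.36 FPKM in the Young samples, with ratios of Old to Young from 0.482 to 0.566. For Ppara the log2 fold change was -0.75 ± 0.07 (standard error, limma adjusted p = 0.0274).

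Ppard is the PPAR gene with the higher level in these muscles. It lies on chromosome 17 from 28232737 to 28301469 (mm10 locus, plus strand), and had 11.5 FPKM in Old 1, 5.82 FPKM in Old 2, 9.05 FPKM in Young 1 and 17.6 FPKM in Young 2. Scaled, the Old samples had 7.88 and 8.56 FPKM and the Young samples 13.1 and 11.9 FPKM, without overlap. Ppard had a log2 fold change of -0.55 ± 0.08 (standard error, limma adjusted p = 0.0407). The ratio of Ppara to Ppard was 0.361 in Old 1 and 0.354 in Old 2, against 0.449 in Young 1 and 0.448 in Young 2.

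Nrip1 had the largest difference of the 9 members without a value of 0. It lies on chromosome 16 from 76287422 to 76373110 (mm10 locus, minus strand), and had 6.75 FPKM in Old 1, 3.41 FPKM in Old 2, 7.17 FPKM in Young 1 and 13.4 FPKM in Young 2. This was the only member whose deposited values did not overlap between the ages, a pattern of lower values that 1.93% of the tested genes met (1.61% had both Old samples above). Scaled, the Old samples had 4.62 and 5.02 FPKM and the Young samples 10.4 and 9.10 FPKM. Nrip1 had a log2 fold change of -0.89 ± 0.09 (standard error, limma adjusted p = 0.029), and 2.60% of the tested genes had a lower one. The ratio of Ppargc1a to Nrip1, the coactivator to the corepressor, was 1.40 and 1.39 in Old 1 and Old 2 and 1.16 and 1.18 in Young 1 and Young 2, a log2 difference of 0.25.

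The 3 genes whose profile over the 4 samples was nearest to that of Nrip1, by the root mean square difference of centred log2(scaled FPKM + 1), were Cav2, Yif1b and S1pr1, with differences of 0.0125, 0.0171 and 0.0176. Cav2 encodes a caveolin and S1pr1 a receptor for sphingosine-1-phosphate that is abundant in endothelium. Cav2 had 13.3 and 14.4 scaled FPKM in Old 1 and Old 2 and 27.7 and 24.9 in Young 1 and Young 2. The log2 fold changes of the 3 genes were -0.88, -0.91 and -0.91 (adjusted p = 0.0274 from limma for each). The genes were picked for their likeness to Nrip1, so these values had to be close to those of Nrip1 and add no support. With only 4 samples many profiles are alike, and 42 genes lay within 0.05 of Nrip1.

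Nrf1 had close to the same scaled level at both ages. It lies on chromosome 6 from 30047472 to 30153458 (mm10 locus, plus strand), and had 5.76 FPKM in Old 1, 2.57 FPKM in Old 2, 2.72 FPKM in Young 1 and 5.98 FPKM in Young 2. After scaling, the levels were 3.94 and 3.78 FPKM in the Old samples and 3.95 and 4.07 FPKM in the Young samples. For Nrf1 the log2 fold change was -0.04 (95% interval -0.21 to 0.12, standard error 0.06, limma adjusted p = 0.721).

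Tfam, on chromosome 10 from 71225477 to 71238044 (mm10 locus, minus strand), had 19.6 FPKM in Old 1, 10.3 FPKM in Old 2, 8.91 FPKM in Young 1 and 17.4 FPKM in Young 2. Scaled, the Old samples had 13.4 and 15.1 FPKM and the Young samples 12.9 and 11.9 FPKM, so that each Old sample exceeded each Young sample by a narrow margin. For Tfam the log2 fold change was 0.18 (95% interval -0.08 to 0.45, standard error 0.09, limma adjusted p = 0.277). The ratio of Tfam to Nrf1 was 3.40 in Old 1 and 3.99 in Old 2, against 3.28 in Young 1 and 2.91 in Young 2.

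Gabpa, on chromosome 16 from 84827871 to 84863778 (mm10 locus, plus strand), had 18.7 FPKM in Old 1 and 16.6 FPKM in Young 2, and was listed at 0 in Old 2 and Young 1. It shared this pattern with other genes: 697 of the tested genes were listed at 0 in Old 2 and Young 1 with at least 1 FPKM in Old 1 and Young 2. No fold is given. The locus overlaps Atp5j on the opposite strand, and how the counting used strand is not given in the sources used here.

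**Figure D3:**
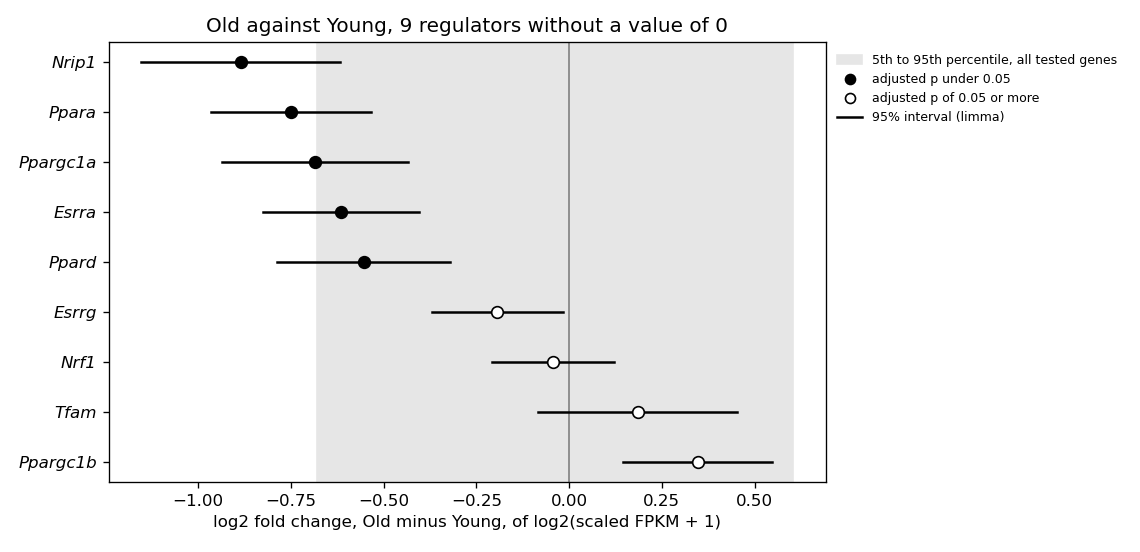
log2 fold change (Old minus Young, of log2(scaled FPKM + 1)) of the 9 members without a value of 0, with 95% intervals from limma. Filled points passed an adjusted p under 0.05, and the grey band runs from -0.68 to 0.60, the 5th to 95th percentile of all tested genes. The filled points are Nrip1, Ppara, Ppargc1a, Esrra and Ppard, from -0.89 to -0.55.

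The order of the scaled levels of the 9 members without a value of 0, which are per length and so comparable between genes, differed between the ages. In the Young samples Esrra was followed by Ppard, Tfam and Ppargc1a, whose ranges over the samples overlapped. Nrip1, Ppara, Esrrg, Nrf1 and Ppargc1b came next, and their ranges did not overlap. In the Old samples Esrra was followed by Tfam, Ppard, Ppargc1a, Nrip1 and Esrrg without overlap, then by Nrf1 and Ppargc1b, whose ranges overlapped, and Ppara was the lowest. Ppara thus stood above Esrrg, Nrf1 and Ppargc1b in the Young samples and below them in the Old samples. In bulk samples, fewer cells of a type and less RNA per cell cannot be told apart.

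The other genes of the pathway were taken from 5 lists, whose counts are to be read against the 7.94% lower and 5.61% higher among all tested genes. Of 25 genes tested among the known targets of PGC-1 and ERR, 9 were lower (36.0%) and 0 were higher in old muscles. All 25 had a log2 fold change below 0, as did 50.64% of all tested genes. The median log2 fold change of the list was -0.45. The list was drawn up with earlier results of these data known, so its direction is not independent evidence. The lower genes were Ckmt2, Sod2, Ndufb5, Cycs, Cox5b, Mdh2, Kyat1, Uqcrc2 and Sdhb. Ckmt2, the mitochondrial creatine kinase of muscle, had 535 and 506 scaled FPKM in Old 1 and Old 2 against 1228 and 1577 in Young 1 and Young 2, so that the log2 fold change was -1.42 ± 0.16 (standard error, limma adjusted p = 0.0299). Sod2, the superoxide dismutase of the mitochondrial matrix, had 87.3 and 92.7 scaled FPKM against 180 and 171, a log2 fold change of -0.96 ± 0.07 (standard error, limma adjusted p = 0.024). For Ndufb5, a subunit of complex I, the log2 fold change was -0.72 (adjusted p = 0.0339 from limma). At the other end of the list, Timm23, Opa1 and Kyat3 had log2 fold changes of -0.07, -0.08 and -0.11 and did not pass the test.

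Among 23 tested PPAR target genes, 4 were lower and 1 was higher (17.4% and 4.35%, against 7.94% and 5.61% of all tested genes), and the median log2 fold change was -0.02. The lower genes act on stored and imported fat or on the inner membrane. Pnpla2, the triglyceride lipase ATGL, had 57.9 and 64.0 scaled FPKM in Old 1 and Old 2 against 135 and 124 in Young 1 and Young 2, so that the log2 fold change was -1.08 ± 0.09 (standard error, limma adjusted p = 0.0248). Plin5, which coats lipid droplets, and the carrier Ucp2 had log2 fold changes of -0.80 and -0.78 (adjusted p = 0.0237 and 0.0279 from limma). For the fatty acid transporter Cd36 it was -0.62 (adjusted p = 0.0311 from limma). Vldlr, a receptor for lipoproteins, was higher, with a log2 fold change of 0.46 (adjusted p = 0.0443 from limma). Pdk4, the kinase that inhibits pyruvate dehydrogenase, had 208 and 207 scaled FPKM in the Old and 109 and 149 scaled FPKM in the Young samples, and did not pass the test (log2 fold change 0.70, adjusted p = 0.0913 from limma). Angptl4, an inhibitor of lipoprotein lipase, did not pass either (0.49, adjusted p = 0.332 from limma).

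Of 23 tested partners and co-regulators, 1 was lower and 2 were higher (4.35% and 8.70%), shares near the 7.94% and 5.61% of all tested genes. The lower gene was Perm1, a muscle regulator induced by PGC-1 and ERR, with 51.4 and 55.2 scaled FPKM in Old 1 and Old 2 against 87.3 and 82.3 in Young 1 and Young 2 (log2 fold change -0.66, standard error 0.07, adjusted p = 0.0307 from limma). The thyroid hormone receptor gene Thrb was higher (0.43, adjusted p = 0.0401 from limma). So was the label that holds Gabpb2, a partner of GABPA, together with Mllt11 (0.54, adjusted p = 0.0335 from limma), and the 2 genes cannot be told apart there. The corepressor gene Ncor1 had a log2 fold change of 0.50 and just missed the threshold (adjusted p = 0.0578 from limma). Pparg and Thra, at -0.60 each, did not pass (adjusted p = 0.206 and 0.765 from limma).

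Upstream of PGC-1, 1 of 23 tested genes was lower and 2 were higher (4.35% and 8.70%), again near the 7.94% and 5.61% of all tested genes. Prkag3, the AMPK gamma subunit of fast glycolytic fibers, had 67.6 and 58.3 scaled FPKM in Old 1 and Old 2 against 28.9 and 24.5 in Young 1 and Young 2, so that the log2 fold change was 1.21 ± 0.13 (standard error, limma adjusted p = 0.0294). The class II histone deacetylase gene Hdac4 was also higher (0.88, adjusted p = 0.0263 from limma). Prkaa1, a catalytic subunit of AMPK, was lower (-0.35, adjusted p = 0.0419 from limma). Mef2d and Crtc2 had log2 fold changes of -0.35 and -0.32 and did not pass (adjusted p = 0.0745 and 0.0579 from limma), and Mef2c was listed at 0 in Young 1 and did not pass (adjusted p = 0.209 from limma).

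Among 15 tested genes for the transcription and replication of mitochondrial DNA, 1 was lower and 2 were higher (6.67% and 13.3%, against 7.94% and 5.61% of all tested genes). Ssbp1, the mitochondrial single-strand binding protein, had a log2 fold change of -0.37 (adjusted p = 0.043 from limma). Top1mt, the mitochondrial topoisomerase, and Mgme1, a mitochondrial exonuclease, had log2 fold changes of 0.71 and 0.37 (adjusted p = 0.0227 and 0.0387 from limma). Polg, Mterf2 and Tfb1m had log2 fold changes of -0.26, -0.17 and 0.39 and did not pass (adjusted p = 0.123, 0.133 and 0.642 from limma).

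**Figure D4:**
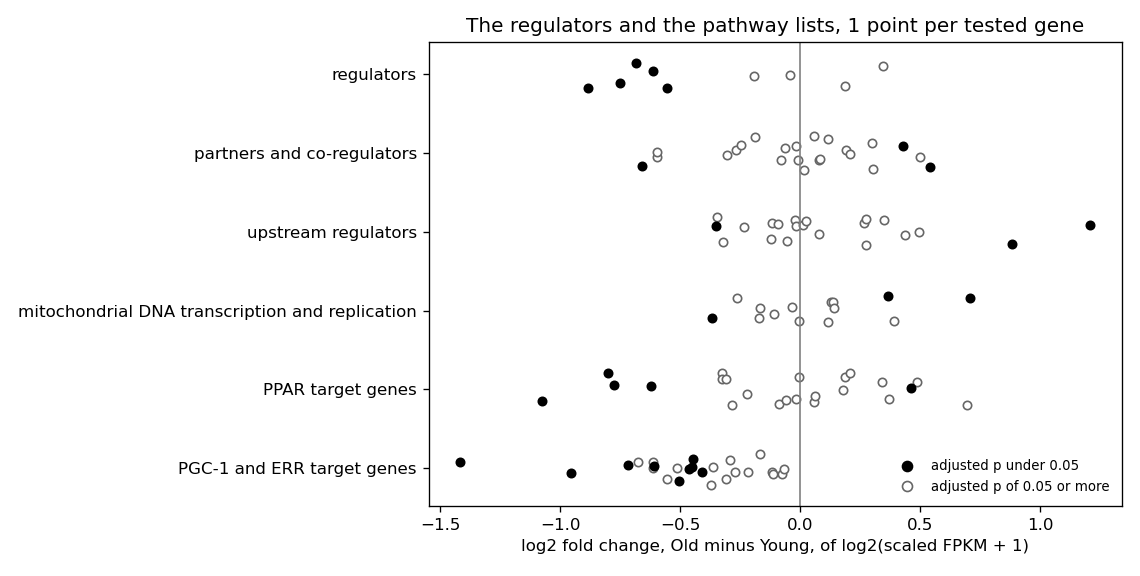
log2 fold change (Old minus Young, of log2(scaled FPKM + 1)) of each tested gene of the regulators and of the 5 pathway lists, 1 point per gene, filled where the adjusted p was under 0.05. Points are spread vertically only to be seen apart, and 4 genes with a standard error of 1 or more (Gabpa, Stk11, Mef2c and Polrmt) are not drawn. All 25 tested targets of PGC-1 and ERR lie below 0.

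Over the 5 lists, 16 of 109 tested genes were lower and 7 were higher (14.7% and 6.42%, against 7.94% and 5.61% of all tested genes). With the values as deposited these counts were 0 and 1 (0.127% and 0.175% of all tested genes). Without Young 2 they were 4 and 5 (2.67% and 1.91% of all tested genes) and without Old 1 they were 0 and 1 (1.17% and 0.584%). Without Old 2 or Young 1 the calls of the lists did not hold. The median of the targets of PGC-1 and ERR was -0.46 with the values as deposited and ran from -0.48 to -0.34 when a sample was left out.

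Some markers of other cells and fibers differed between the ages in the same samples. All 5 slow-fiber markers with a value (Myh7, Tnnt1, Myl2, Tnnc1 and Tnni1) were higher in old muscles, and their summed scaled level was 798 and 619 FPKM in Old 1 and Old 2 against 40.6 and 49.7 FPKM in Young 1 and Young 2. Of 5 fibroblast markers 3 were lower (Col1a1, Col1a2 and Col3a1), with a summed level of 114 to 127 FPKM in the Old and 168 to 182 FPKM in the Young samples. The other fibroblast markers, Dcn and Pdgfra, had log2 fold changes of 0.30 and 0.15 and did not pass the test (limma adjusted p = 0.148 and 0.358). The Schwann cell marker Pmp22 was lower (12.2 and 12.8 against 21.6 and 20.0 scaled FPKM, limma adjusted p = 0.0276). Of 5 endothelial markers only Tie1 was lower (8.36 and 9.14 against 14.5 and 13.1 scaled FPKM). Pecam1, Emcn, Kdr and Tek had log2 fold changes of -0.273, -0.085, 0.034 and 0.007. They did not pass the test (limma adjusted p = 0.174, 0.335, 0.916 and 0.996). The 5 together summed to 46.4 to 50.2 FPKM in the Old and 54.9 to 60.6 FPKM in the Young samples. The 5 white adipocyte markers summed to 224 to 246 FPKM in the Old and 241 to 267 FPKM in the Young samples, most of it Fabp4. Of these markers 0 of the 4 tested passed. Fabp4 had a log2 fold change of -0.135 (limma adjusted p = 0.495). Adipoq, Plin1 and Cidec were at 0.82, 0.25 and 0.25 (limma adjusted p = 0.0888, 0.635 and 0.617). Lep, which was not tested, had 0.97 and 0.54 scaled FPKM in the Old and 0.08 and 0.31 in the Young samples. For the macrophage and leukocyte list the sums were 16.8 to 17.7 FPKM in the Old and 13.3 to 15.4 FPKM in the Young samples, most of it Cd74 under a label shared with Mir5107, which was higher (adjusted p = 0.0346 from limma). The other tested genes of that list, Csf1r and Cd68, had log2 fold changes of -0.21 and -0.67 and did not pass the test (limma adjusted p = 0.631 and 0.388). Brown adipocyte, satellite cell and heart markers summed to at most 2.35 FPKM in any sample, and the heart genes Nppb and Myl7 were listed at 0 in all 4. The part of these cells and fibers in the levels of the regulators was not tested.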

How the data were processed

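mRNA-seq was performed on 2 TA muscle samples per age. The deposited FPKM values are one number per RefSeq locus, which the authors computed with Cufflinks separately for each sample. They come from TopHat2 2.0.10 alignments to mm10, made after quality trimming and with PCR duplicates taken out. The submitters' processing notes also name Cuffdiff 2.1.1, which scales libraries before testing and works on aligned reads. It was not run here.

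The last, incomplete line of each table was left out. Tables ended within chromosome 7 or early in chromosome 8 with chromosomes in text order. The 542 loci that were in some tables but not in all were not analysed here, and the 20605 others were summed by symbol. Loci past the end of every table had no value in any sample and are not among the 542. Locus starts were printed 1-based. The tables give no read counts, so depth is unknown. No interval from counts is given.

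Samples were scaled by the median of ratios over 7228 genes with at least 1 FPKM in all 4 samples. Scaling in place of values as deposited was chosen because of the factor between samples of an age. log2(scaled FPKM + 1) was compared with limma 3.58.1 in R 4.3.3 (trend, two-sided, adjusted p under 0.05). Genes were tested if 2 or more samples reached 1 FPKM. Fold changes on this scale understate those of low genes. In simulated data with a factor between samples (10935 genes), 94% of genes changed by a log2 of 0.5 and 100% of those changed by a log2 of 1 were recovered. Median estimates were 0.46 and 0.91, with 8 false calls in all. The simulated noise was independent between samples, and no gene was set to 0 in some samples only. These rates thus do not measure recovery in the deposited data.

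All 10 members were named, with the 3 largest and 3 smallest log2 fold changes of each pathway list, the markers by list, and the 3 nearest profiles to the member with the largest change. Other called list members were added after their values were seen. The members and lists were chosen with earlier results of these data known. The summed level of 1 marker list is not reported here. List genes were matched by current and older symbols. Strand and overlaps were taken from GENCODE M21 (GRCm38). Python 3.11.15, pandas 2.3.3 and matplotlib 3.10.9 were used for tables and plots.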

Additional observations from a re-analysis of the deposited data

How the results depend on the processing

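The log2 fold changes of the 9 members without a value of 0 kept their direction under every other setting tried. A filter, the trend and a block leave the fold change itself unchanged (Ppargc1a -0.685 with each), so direction was fixed in advance there. As deposited it moved little (-0.693). The log2 scale factors nearly cancel within an age (0.548 and -0.557 in Old 1 and Old 2, -0.538 and 0.556 in Young 1 and Young 2). Gabpa turned to -1.73 without Old 1 and -1.81 without Young 1, and was 2.07 without Old 2 and 1.81 without Young 2, fitted values that rest on its values of 0 and the pseudocount and measure no change. Under the settings below, the counts are of all genes higher and lower, then members higher and lower, then pathway genes higher and lower. As deposited they were 18 and 13, 0 and 0, 1 and 0 (members 0 at an unadjusted p under 0.05). With quantile normalization they were 119 and 188, 0 and 1 (Esrra), 2 and 4, and with cyclic loess 1135 and 1395, 0 and 5, 14 and 25. Without the trend they were 103 and 181, 0 and 0, 1 and 4, and without a filter 0 throughout (1532 and 1696, 1 and 6, 18 and 26 at an unadjusted p under 0.05, limma). Over genes that reached 1 FPKM in all 4 samples they were 1222 and 1302, 1 (Ppargc1b) and 5, 14 and 20. A pseudocount of 0.1 and the highest locus per symbol moved no count by over 1.5 times. Leaving out 1 sample, where the lone sample of an age is assumed to vary like the others, gave 0 to 196 and 2 to 274 for all genes (0 higher without Young 1, 1102 at an unadjusted p under 0.05, limma), 0 to 0 and 0 to 3 for members, and 0 to 5 and 0 to 4 for pathway genes. The cause of these moves was not tested. Under the replicate block, which pairs samples of the same number, the counts were 24 and 21, 0 and 0, 0 and 0. The deviations of same-numbered samples correlated at -0.903 over genes, so the values did not run together by number. Whether same-numbered samples were collected or processed together cannot be read from this. The crossed pairs as a block, added after seeing the data, gave 3242 and 3503, 2 and 6, 30 and 50.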
